A study of Mus musculus with 24 samples.

Results

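The subject is a set of 10 transcription factors that pattern and differentiate the somites: Tcf15, Meox1, Meox2, Foxc1, Foxc2, Uncx, Tbx18, Pax1, Pax9 and Myf5. The genes were taken by symbol from the deposited embryo table, where each had 1 row among 55421, and the same rows of the yolk sac table served as background. RNA was sequenced from whole mouse embryos and from yolk sacs at embryonic day 9.5, in a line with a Setd2 null allele and in a line with a catalytic dead allele (CD). Setd2 encodes a histone methyltransferase that trimethylates lysine 36 of histone H3, and by their names one allele removes the gene product and the other leaves a protein without enzyme activity. All mice were C57BL/6. In each tissue there were homozygotes (HO), heterozygotes (HE) and wild types (WT) of each line, with 2 libraries per group and 12 libraries per tissue. The sources used here do not tell how either allele was built, how many embryos went into a library or how many somites each embryo had. No label states that replicates came from separate animals or litters, so a p-value here reflects the spread between libraries. In null HO and CD HE of both tissues, and in null HE yolk sacs, the 2 replicates differed in the sex transcripts Xist and Ddx3y. Those pairs were not repeats of 1 sample, while in the other groups the spread may be technical.

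Somites are blocks of paraxial mesoderm that bud off in sequence from the presomitic mesoderm on each side of the neural tube. Each block first becomes an epithelial ball, under the control of Tcf15 (paraxis), and is divided into a cranial part, marked by Tbx18, and a caudal part, marked by Uncx. The ventral cells then lose their epithelial form and become the Pax1- and Pax9-expressing sclerotome, which forms vertebrae and ribs, while the dorsal dermomyotome gives rise to the Myf5-expressing muscle precursors. Meox1 and Meox2 are homeobox factors of the early somite, and Foxc1 and Foxc2 are forkhead factors of the presomitic mesoderm and somite. Several members are also used elsewhere in the embryo: Pax9 and Pax1 in the pharyngeal pouches, Tbx18 in the proepicardium, Foxc1 and Foxc2 in head mesenchyme and vessels.

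Levels are counts scaled to library size (CPM), or FPKM, which also divides by gene length, where genes are compared with each other. Total counts per library were 23414255 to 27674831 in embryos and 16400137 to 22113787 in yolk sacs. Each change is a log2 fold change, with SE for its standard error. A gene was called changed at an adjusted p of 0.05 or less in edgeR's quasi-likelihood test, with the Benjamini-Hochberg adjustment taken over all genes tested in that tissue. All 10 members passed the filter on low counts in embryos and 2 of 10, Foxc1 and Pax9, passed it in yolk sacs.

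Levels of Setd2 itself served as a check of the labels. Setd2 averaged 98.7 ± 7.63 CPM in null HO embryos, 163 ± 8.27 in null HE and 231 ± 2.12 in null WT (SD, n = 2 each). Null HO embryos were therefore lower by a log2 fold change of -1.23 (SE 0.07, edgeR adjusted p = 4.67e-07). In CD embryos it averaged 215 ± 3.86 CPM in HO and 239 ± 21.7 CPM in WT, a change of -0.15 (SE 0.07, edgeR adjusted p = 0.161).

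A few libraries stood apart. Xist was high and Ddx3y near 0 in CD HO, in null WT, in null HO replicate 2 and in CD HE replicate 1, and the reverse in the other embryo libraries, so HO and WT differed in sex in the CD line. CD WT replicate 2 held more visceral endoderm transcripts, 1196 CPM summed over 23 marker genes against 351 CPM in CD WT replicate 1, and more tail bud transcripts, 526 CPM against 327 CPM over 15 genes. Null HO replicate 2 held fewer erythroid transcripts, 383 CPM over 16 genes against 1717 CPM in null HO replicate 1, and more cardiac ones, 2719 against 1751 CPM over 16 genes. For the changes of the members against WT in each line, where leaving out 1 library ended a call or moved a called fold by over 1.5 times, the value without it stands beside the result.

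No member overlaps another in mm10. In the GENCODE annotation of that build, Meox2 spans chr12:37108540-37179534 on the plus strand, Pax9 lies on the same chromosome at chr12:56691767-56712822, plus strand, and Pax1 spans chr2:147361925-147393295, plus strand. Tcf15 shares chromosome 2 with Pax1, at chr2:152143561-152149097, plus strand. Another annotated gene overlaps 6 of the 10: Gm11551 overlaps Meox1, Gm48617 overlaps Meox2, Gm20388 overlaps Foxc2, D030062O11Rik overlaps Tbx18, AI646519 overlaps Pax1, and Gm15524 and Slc25a21 overlap Pax9. The sources used here do not say whether counting used strand. Without it, reads of these 6 members and of their overlapping genes may not be fully separated. The overlaps are of whole gene spans, and overlap of exons was not examined. Foxc2 and Gm20388, and likewise Meox2 and the intronic Gm48617, lie on the same strand, where strand would not separate them.

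RefSeq start regions were found for 7 of the 10 members. The 250 bases before the RefSeq start are shown for 3 of them, Meox2 because its fall was the largest of the set, and Pax1 and Pax9 because this pair of sclerotome genes moved apart. They are from build GRCm38.p6, plus strand, 5′ to 3′, at chr12:37108290-37108539 for Meox2, chr2:147364744-147364993 for Pax1 and chr12:56695221-56695470 for Pax9. The windows of Pax1 and Pax9 lie inside the GENCODE spans given above, since the RefSeq start used for each lies downstream of the GENCODE one. Capitals mark matches on either strand to CANNTG (the E-box read by basic helix-loop-helix factors such as TCF15 and MYF5), TAATTA (a homeodomain core), CCAAT (the CCAAT box) and TATAAA (the TATA box).
Meox2: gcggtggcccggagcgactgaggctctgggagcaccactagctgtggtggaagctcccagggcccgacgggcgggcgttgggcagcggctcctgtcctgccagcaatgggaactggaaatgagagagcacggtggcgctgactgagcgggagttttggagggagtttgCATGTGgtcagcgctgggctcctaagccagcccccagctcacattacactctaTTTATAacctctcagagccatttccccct
Pax1: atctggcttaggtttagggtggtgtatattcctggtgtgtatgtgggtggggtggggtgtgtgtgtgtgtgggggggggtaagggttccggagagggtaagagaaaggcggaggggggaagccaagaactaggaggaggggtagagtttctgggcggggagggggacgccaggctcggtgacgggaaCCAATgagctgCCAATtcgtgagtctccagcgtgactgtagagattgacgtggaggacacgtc
Pax9: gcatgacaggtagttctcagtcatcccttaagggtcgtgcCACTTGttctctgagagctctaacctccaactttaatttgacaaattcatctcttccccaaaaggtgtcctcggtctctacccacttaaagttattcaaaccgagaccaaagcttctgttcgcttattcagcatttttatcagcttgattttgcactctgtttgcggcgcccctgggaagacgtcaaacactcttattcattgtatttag
The Meox2 window held 1 E-box and 1 TATA box, the Pax1 window 2 CCAAT boxes and the Pax9 window 1 E-box. Among 32851 RefSeq windows of this length, 66.2% held an E-box, 33.8% a CCAAT box, 12.4% a TATA box and 4.84% TAATTA. The 3 windows differed in base composition, with a GC content of 62% for Meox2, 58.8% for Pax1 and 43.6% for Pax9, against a median of 52.4% over all windows. A match to these letters is a description of the window and no measurement of binding.

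Homozygotes of both lines had lower levels of nearly the whole set. In null HO embryos 9 of 10 members fell and Pax9 rose, where 32.7% of all genes tested were called, 16.5% lower and 16.2% higher. In CD HO embryos 7 of 10 members fell and none rose, where 16.1% of all genes were called, 9.14% lower and 6.92% higher. The median log2 fold change of the members was -1.99 in the null line and -1.04 in the CD line, against 0.01 and 0.00 over all genes tested in the same comparisons. For 9 of 10 members, all but Pax9, each of the 4 HO libraries lay below each of the 8 HE and WT libraries, an order that 13.2% of the genes tested showed, while 11.3% had every HO library above and 24.5% showed either order. Outside the somite, some gene lists leaned lower in the same embryos and others did not. In null HO embryos 8 of 20 intermediate and lateral plate mesoderm genes rose and 4 fell (median 0.49). Of 16 cardiac genes 4 rose and 1 fell, of 15 endothelial genes 3 rose and 3 fell, and of 21 visceral endoderm genes 3 rose and 1 fell. In CD HO embryos 1 of the lateral plate list rose and 2 fell, and no cardiac gene was called. Of 20 neural tube genes 11 fell and 3 rose in null HO embryos (median -0.93), and their summed level was 263 and 309 CPM in null HO against 377 and 405 CPM in null WT. Of 15 primitive erythroid genes 9 fell in null HO embryos (median -1.79), a count of 1 to 14 when single libraries were left out, and of 15 mitochondrially encoded transcripts 11 fell. In CD HO embryos 6 of 20 neural tube genes fell and 2 rose, 10 of 15 mitochondrially encoded transcripts fell, and 14 of 21 visceral endoderm genes fell. The visceral endoderm sum was 400.3 and 427 CPM in CD HO, against 351 and 1196 CPM in CD WT, and the count was 8 to 17 with 1 library left out. The part of these lists in the levels of the members was not tested. Fewer somite cells and less RNA of these genes per cell cannot be told apart in RNA from whole embryos.

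**Figure D1:**
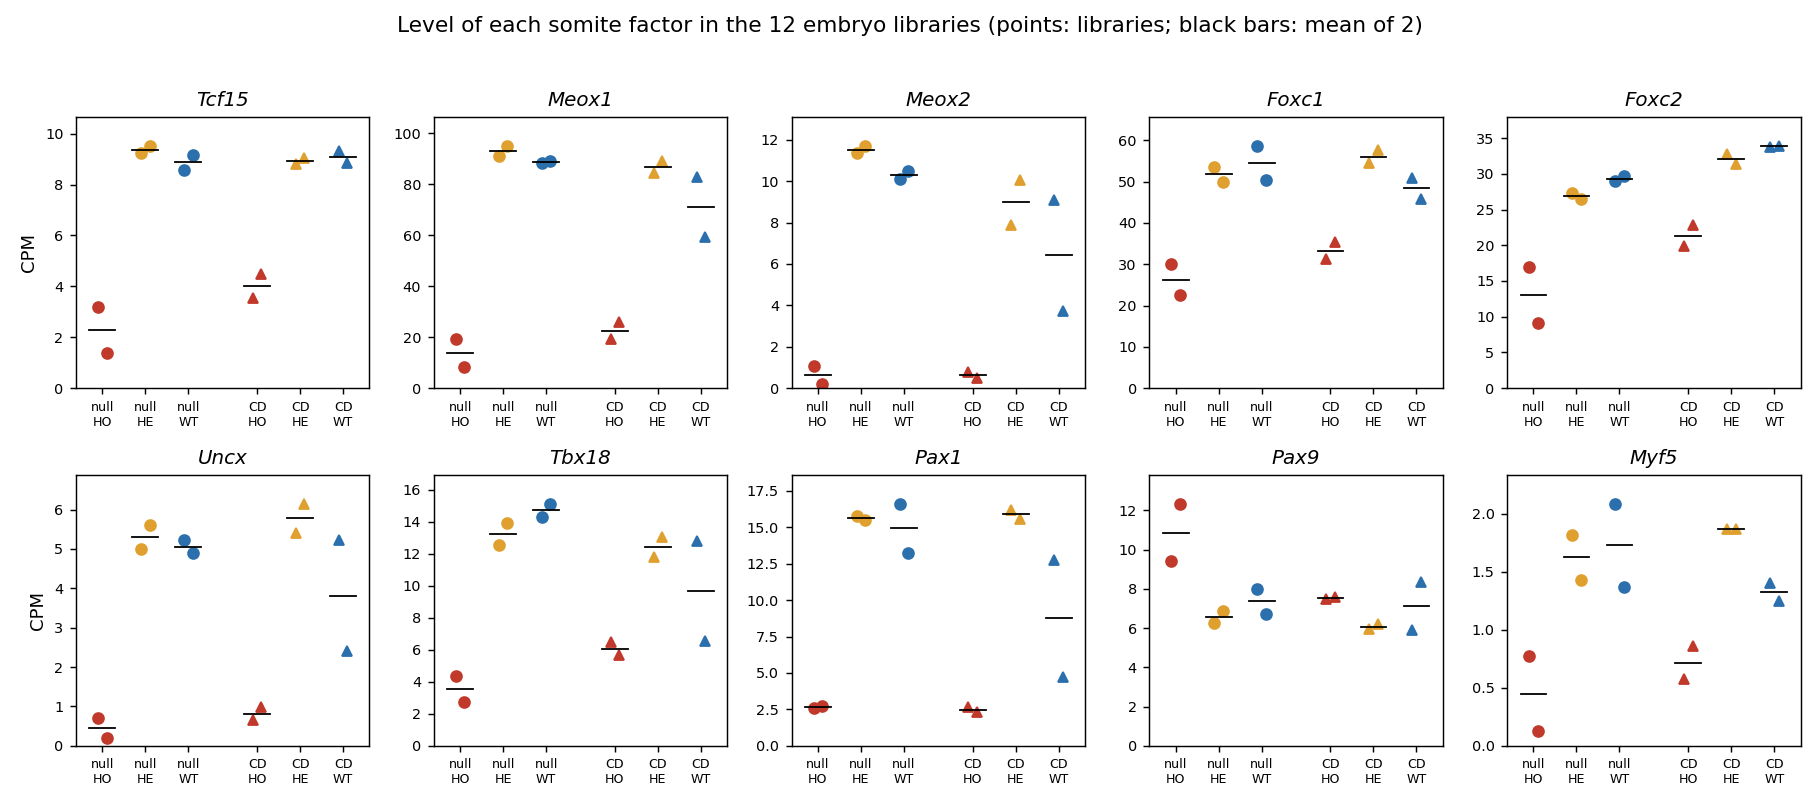
CPM (vertical axes, each starting at 0) of the 10 members in every embryo library, by line and genotype; each point is a library (circles null, triangles CD; red HO, orange HE, blue WT) and each black bar the mean of 2. The 4 red points lie below all others in 9 panels and not in that of Pax9, and the lower blue triangle in the Meox2, Uncx, Tbx18 and Pax1 panels is CD WT replicate 2.

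Tcf15, which is needed for somites to become epithelial, had 3.20 and 1.38 CPM in the null HO embryos, against 8.58 and 9.16 CPM in null WT. CD HO embryos had 3.52 and 4.50 CPM, against 9.31 and 8.83 CPM in CD WT. The WT and HE libraries of both lines kept within 8.58 to 9.50 CPM, and every HO library was below that range. Tcf15 fell in null HO embryos by 1.94 on the log2 scale (SE 0.26, edgeR adjusted p = 0.000181) and in CD HO embryos by 1.18 (SE 0.24, edgeR adjusted p = 0.00677). The CD call did not pass without CD HO replicate 1 (-1.01, adjusted p in edgeR 0.0688). The null change was -2.68 with null HO replicate 1 left out and -1.48 with null HO replicate 2 left out.

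The pair of Meox genes, which act together in the early somite, fell in both lines, and Meox2 had the largest fall of the set. Meox1 had 19.2 and 8.26 CPM in null HO embryos, against 88.5 and 89.0 CPM in null WT, and was 6.41-fold lower. In the CD line it had 19.2 and 25.9 CPM in HO embryos, against 82.7 and 59.4 CPM in WT, and was 3.16-fold lower. Its log2 fold changes were -2.68 (SE 0.27, edgeR adjusted p = 2.87e-05) in null and -1.66 (SE 0.26, edgeR adjusted p = 0.00139) in CD embryos. Both calls of Meox1 held in each of the 11 alternatives run for each line. The null change was -3.43 with null HO replicate 1 left out, and -2.22 with null HO replicate 2 left out.

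Meox2 fell further than its paralogue. Null HO embryos had 1.08 and 0.210 CPM, from 28 and 5 counts, against 10.1 and 10.5 CPM in null WT. CD HO embryos had 0.766 and 0.515 CPM, from 20 and 12 counts, against 9.11 and 3.75 CPM in CD WT. No HO library reached even the low CD WT replicate 2. The log2 fold change was -3.96 (SE 0.48, edgeR adjusted p = 0.000101) in null and -3.31 (SE 0.50, edgeR adjusted p = 0.00124) in CD embryos, the largest change among the 10 members in each line. Counted from the most negative change among the 19215 genes tested, Meox2 ranked 45 in the null line and 62 in the CD line. The null change of Meox2 was -5.60 with null HO replicate 1 left out and -3.26 with null HO replicate 2 left out. The CD change was -2.53 with CD WT replicate 1 left out and -3.81 with CD WT replicate 2 left out, and both lines kept their calls.

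Foxc1 and Foxc2, forkhead factors that overlap in their work in paraxial mesoderm, fell the least of the members that fell. Foxc1 had 29.995 and 22.5 CPM in null HO embryos, against 58.6 and 50.4 CPM in null WT. In CD embryos it had 31.4 and 35.3 CPM in HO, against 51.0 and 45.9 CPM in WT. The 4 HO libraries were all below the WT libraries, and the nearest were the 35.3 CPM of CD HO replicate 2 and the 45.9 CPM of CD WT replicate 2. Foxc1 fell by 1.05 (SE 0.12, edgeR adjusted p = 8.28e-05) in null and by 0.54 (SE 0.12, edgeR adjusted p = 0.0114) in CD embryos on the log2 scale.

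Foxc2 had 16.9 and 9.10 CPM in null HO embryos, against 28.9 and 29.7 CPM in null WT. It had 19.9 and 22.8 CPM in CD HO embryos, against 33.8 and 33.9 CPM in CD WT. The changes were -1.17 (SE 0.19, edgeR adjusted p = 0.000786) and -0.67 (SE 0.19, edgeR adjusted p = 0.0301). The CD calls of this pair were the least stable of those made: that of Foxc2 did not pass when any 1 of the 4 libraries compared was left out (edgeR adjusted p = 0.0625 to 0.17), and that of Foxc1 did not pass without CD HO replicate 1 (0.0899) or CD WT replicate 1 (0.0655).

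The caudal marker Uncx, whose homeodomain product is needed for pedicles and proximal ribs, had a larger fall than the cranial marker Tbx18 in each line. Uncx had 0.694 and 0.210 CPM in null HO embryos, from 18 and 5 counts, against 5.21 and 4.90 CPM in null WT. It had 0.651 and 0.986 CPM in CD HO embryos, against 5.22 and 2.42 CPM in CD WT. It was 10.9-fold lower in null HO embryos (log2 fold change -3.44, SE 0.43, edgeR adjusted p = 0.000127) and 4.69-fold lower in CD HO embryos (-2.23, SE 0.40, edgeR adjusted p = 0.00354). The null change of Uncx was -4.57 with null HO replicate 1 left out and -2.87 with null HO replicate 2 left out. The CD change was -1.57 with CD WT replicate 1 left out and -2.68 with CD WT replicate 2 left out, and the CD call did not pass with a sex term (-1.78, adjusted p in edgeR 0.0816).

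Tbx18, a T-box factor that keeps the cranial part of the somite distinct, had 4.36 and 2.77 CPM in null HO embryos, against 14.3 and 15.1 CPM in null WT. The fall was -2.04 (SE 0.27, edgeR adjusted p = 0.000186). In CD embryos it had 6.47 and 5.66 CPM in HO, against 12.8 and 6.54 CPM in WT, and the change of -0.67 did not pass (SE 0.26, 95% interval -1.24 to -0.10, edgeR adjusted p = 0.103). That comparison turned on CD WT replicate 2, the lowest of the WT libraries: with that library left out the change was -1.08 and passed (adjusted p in edgeR 0.00354), and with CD WT replicate 1 left out it was -0.11 (0.803). Against CD HE, at 11.8 and 13.1 CPM, Tbx18 fell in CD HO embryos by 1.04 (SE 0.26, edgeR adjusted p = 0.0138).

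Pax1 and Pax9 are paralogues with partly exchangeable roles in the sclerotome, and in the homozygotes they went apart. Pax1 had 2.62 and 2.73 CPM in null HO and 2.64 and 2.32 CPM in CD HO embryos, all between 2.32 and 2.73 CPM. It had 16.6 and 13.3 CPM in null WT and 12.8 and 4.75 CPM in CD WT embryos. Pax1 fell by 2.48 on the log2 scale (SE 0.34, edgeR adjusted p = 0.000223) in null and by 1.82 (SE 0.35, edgeR adjusted p = 0.00508) in CD embryos. The CD fall of Pax1 depended on the WT library used: it was -0.93 with CD WT replicate 1 left out (edgeR adjusted p = 0.0123) and -2.36 with CD WT replicate 2 left out (5.48e-06). In a fit of CD HO and CD WT alone it did not pass (-1.82, edgeR adjusted p = 0.0554).

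Pax9 had 9.41 and 12.3 CPM in null HO embryos, against 7.996 and 6.73 CPM in null WT. CD HO embryos had 7.47 and 7.59 CPM, inside the 5.90 and 8.33 CPM of CD WT. Pax9 thus rose in null HO embryos, by 0.56 (SE 0.18, edgeR adjusted p = 0.0301). In a fit of null HO and null WT alone this rise did not pass. In CD HO embryos the change of Pax9 was 0.08 (SE 0.18, 95% interval -0.32 to 0.48, edgeR adjusted p = 0.803). The null call rested on single libraries: Pax9 did not pass without null HO replicate 2 (0.34, edgeR adjusted p = 0.221), without null WT replicate 1 (0.69, edgeR adjusted p = 0.0557) or without null WT replicate 2 (0.44, edgeR adjusted p = 0.194). Averaged over both lines its change was 0.32 (SE 0.13, edgeR adjusted p = 0.0635), and with CD WT replicate 2 left out it was 0.45 and passed (adjusted p in edgeR 0.012).

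Because Pax9 is also made in the pharyngeal pouches, the levels of 20 pharyngeal endoderm and arch genes were set beside it. Their summed level was 186 to 210 CPM in null HO embryos and 159 to 163 CPM in null WT, and 207 to 221 CPM in CD HO embryos and 187 to 200 CPM in CD WT. Of the 18 tested, 4 rose and 5 fell in null HO embryos, and 2 rose and none fell in CD HO embryos. The sum was higher in the HO libraries in each line; its part in the level of Pax9 was not tested.

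Myf5, the first of the muscle regulatory factors to be switched on in the somite, had the lowest FPKM of the set in WT embryos. Null HO embryos had 20 and 3 counts (0.771 and 0.126 CPM), against 54 and 36 counts (2.09 and 1.37 CPM) in null WT. CD HO embryos had 15 and 20 counts (0.574 and 0.858 CPM), against 35 and 30 counts (1.40 and 1.25 CPM) in CD WT. All 4 HO libraries were below all others, but counts this low left wide errors. The fall of -1.90 in null embryos passed (SE 0.49, edgeR adjusted p = 0.0111) except without null WT replicate 1 (edgeR adjusted p = 0.0878) or in a fit of null HO and null WT alone (0.0616). It was -3.73 with null HO replicate 1 left out and -1.17 with null HO replicate 2 left out. In CD embryos the change of -0.90 did not pass (SE 0.48, 95% interval -1.93 to 0.14, edgeR adjusted p = 0.228).

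**Figure D2:**
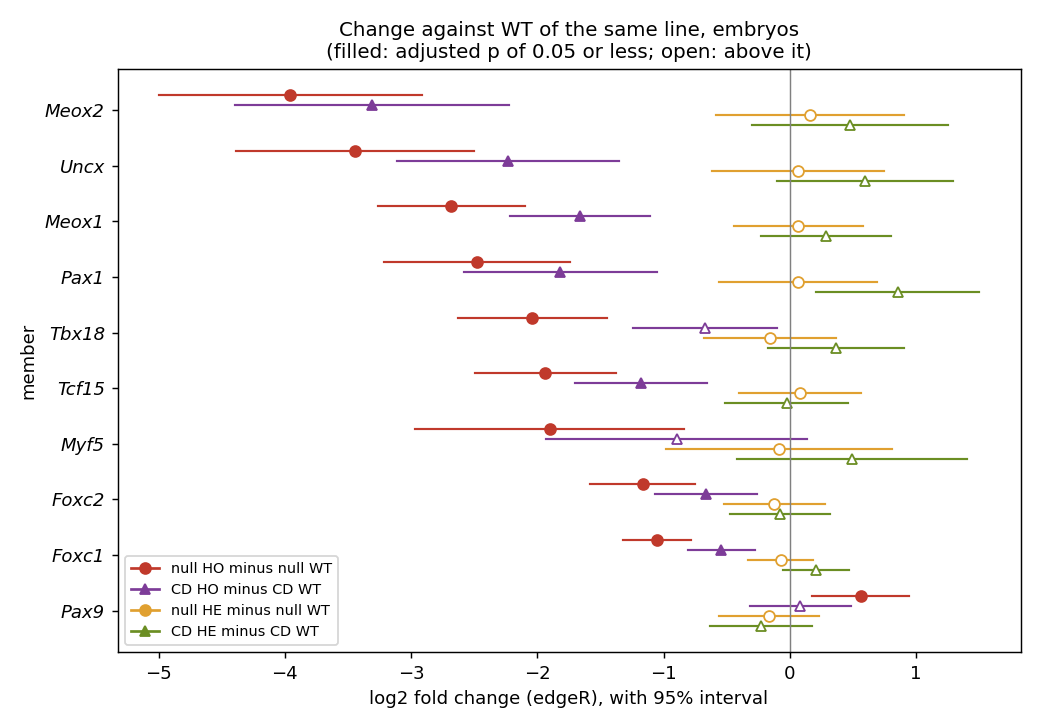
Log2 fold change against WT of the same line (horizontal axis) for each member (vertical axis, ordered by the null HO change), with 95% intervals from the edgeR fit; filled symbols passed an adjusted p of 0.05. The null HO changes run from -3.96 for Meox2 to 0.56 for Pax9, and all open HE symbols lie between -0.23 and 0.86.

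Against HE of the same line, each member's change had the sign it had against WT. All 10 members were called in null HO against null HE, 9 lower and Pax9 higher, where 30.3% of genes were called, 15.1% lower and 15.2% higher. In CD HO against CD HE 9 members fell, where 22.1% of genes were called, 11.9% lower and 10.2% higher. Pax9 had a change of 0.31 there (SE 0.18, edgeR adjusted p = 0.256). The comparisons with HE and with WT use the same HO libraries and are not independent. CD HE replicate 1 matched the CD HO pair in sex transcripts, and against that HE library alone 6 members fell: Tcf15, Meox1, Meox2, Foxc1, Uncx and Pax1, in a fit that called 1763 of all genes against 4252 with both HE libraries. The calls of Foxc2, Myf5 and Tbx18 against CD HE did not pass when any 1 of the 4 libraries was left out, nor did that of Tcf15 with CD HO replicate 1 left out (-0.99, adjusted p in edgeR 0.0567). In the null line the calls of Myf5 and Pax9 against HE did not pass with null HE replicate 1 or null HO replicate 2 left out.

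A sex term in the model left 3 of the 7 CD calls against WT, those of Meox1, Meox2 and Pax1. Calls over all genes went down as well, 1112 with the term against 3087 without it. Both CD HO libraries differed in sex from both CD WT libraries, so sex and genotype cannot be told apart in that comparison. The term is set by the replicates of null HO and of CD HE, the embryo groups with both sexes. The null HO replicates also differed in erythroid and cardiac transcripts. With the term the values were -1.78 for Uncx (edgeR adjusted p = 0.0816), -0.73 for Tcf15 (0.189), -0.31 for Foxc1 (0.243) and -0.32 for Foxc2 (0.455). In the null line all 10 calls stayed with the sex term. They also stayed in the comparison of null HO replicate 2 with null WT, libraries that were alike in sex transcripts.

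Neither line gave a called change of a member in its heterozygotes. Setd2 itself also stayed uncalled in null HE against null WT (-0.50, SE 0.07, edgeR adjusted p = 0.057), so a fall of that size could go uncalled. No member was called in null HE against null WT, where 0.0104% of genes were called, 0.0052% in each direction; edgeR gave 0 members at an unadjusted p under 0.05 and DESeq2 called 0. The null HE changes ran from -0.16 for Pax9 to 0.16 for Meox2, and the widest 95% interval was that of Myf5, -0.98 to 0.81. Both null HE libraries differed in sex transcripts from both null WT libraries, so sex and genotype cannot be told apart in that comparison. In CD HE against CD WT edgeR called 0 members, where 0.0156% of genes were called, 0.0104% higher and 0.0052% lower, with 1 at an unadjusted p under 0.05 and 0 called by DESeq2. The gene with the low unadjusted p was Pax1, at 16.2 and 15.6 CPM in CD HE and 12.8 and 4.75 CPM in CD WT (0.86, SE 0.30, edgeR adjusted p = 0.467). With CD WT replicate 1 left out, so that replicate 2 stood alone, Pax1, Tbx18 and Uncx were called higher in CD HE, among 844 genes called in that fit against 3 with both libraries.

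The WT libraries of the lines were compared for the same reason. Both CD WT libraries differed in sex transcripts from both null WT libraries, so sex and line cannot be told apart there. Of the 10 members 0 were called in CD WT against null WT, where 0.0312% of genes were called, 0.026% higher and 0.0052% lower, with 2 at an unadjusted p under 0.05 (Pax1 and Tbx18) and 0 called by DESeq2. Pax1 differed by -0.77 (SE 0.30, edgeR adjusted p = 0.26) and Tbx18 by -0.60 (SE 0.25, edgeR adjusted p = 0.28). Between the replicates of CD WT, 8 of 10 members were lower in replicate 2, among them Meox2, Uncx, Tbx18 and Pax1, while Foxc2 and Pax9 were not.

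Whether the alleles differed was tested as the CD homozygous effect minus the null homozygous effect. The difference was positive, a smaller fall in CD, for 9 of 10 members, with a median of 0.71. edgeR called 0 of 10, where 0.0208% of genes were called, 0.0104% in each direction. In edgeR 3 members (Tbx18, Foxc1 and Meox1) had an unadjusted p under 0.05. DESeq2 called 1, Tbx18, among 183 genes. Tbx18 had the largest difference, 1.37 (SE 0.38, 95% interval 0.55 to 2.19, edgeR adjusted p = 0.192), and Meox1 differed by 1.02 (SE 0.37, edgeR adjusted p = 0.276). Foxc1 differed by 0.51 (SE 0.17, edgeR adjusted p = 0.268). In null HO replicate 2, 8 of 10 members were lower than in null HO replicate 1. With null HO replicate 1 left out 6 members were called among 1009 genes, and with CD WT replicate 1 left out 2 were called among 1047 genes, against 4 genes with all libraries, so the calls over all genes moved with those of the members. With CD WT replicate 2 and null HO replicate 2 both left out, a choice made after seeing the data, edgeR called 0 members among 96 genes, and DESeq2 was not run on that choice.

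Averaged over the lines, HO against WT lowered 9 members, where 39.7% of genes were called, 20.1% lower and 19.7% higher. The changes of these 9 ran from -3.63 for Meox2 (SE 0.35, edgeR adjusted p = 1.01e-05) to -0.80 for Foxc1 (SE 0.09, edgeR adjusted p = 2.73e-05). Meox1 fell by 2.17 (SE 0.18, edgeR adjusted p = 4.16e-06) and Pax1 by 2.15 (SE 0.24, edgeR adjusted p = 3.6e-05). With null HO replicate 1 left out the averaged change was -4.46 for Meox2 and -2.32 for Myf5, against -1.40 for Myf5 with all libraries. When CD WT replicate 2 and null HO replicate 2 were left out together 10 members were called, Pax9 among them as higher (0.35, adjusted p in edgeR 0.021).

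The order of the members by abundance changed as well. In HO embryos, over 4 libraries of both lines, Meox1 averaged 8.09 ± 3.27 FPKM, Foxc2 6.26 ± 2.17, Foxc1 5.06 ± 0.92 and Tcf15 3.20 ± 1.33 (SD, n = 4). Pax9 came next at 1.80 ± 0.44 FPKM, above Tbx18 at 1.01 ± 0.35 and Pax1 at 0.569 ± 0.039. Myf5 at 0.278 ± 0.156, Meox2 at 0.270 ± 0.155 and Uncx at 0.201 ± 0.102 FPKM could not be ordered beyond their spread. In WT embryos Meox1 averaged 35.9 ± 6.73 FPKM, above Foxc2 at 11.6 ± 0.84, Tcf15 at 9.15 ± 0.40 and Foxc1 at 8.81 ± 0.98. Below them in WT came Meox2 at 3.56 ± 1.36, Pax1 at 2.65 ± 1.14, Tbx18 at 2.59 ± 0.86, Pax9 at 1.43 ± 0.21, Uncx at 1.42 ± 0.45 and Myf5 at 0.733 ± 0.186 FPKM. In WT the libraries of Meox1 and of Foxc2 did not overlap those of their neighbours in this order, and Foxc1 did not overlap Meox2. Tcf15 and Foxc1 overlapped, as did each pair of neighbours from Meox2 down to Myf5. In HO embryos Meox1, Foxc2, Foxc1 and Tcf15 overlapped their neighbours, while Pax9 overlapped Tcf15 above it and not Tbx18 below it. Meox2 moved to the bottom group in HO embryos and Pax9 to above Pax1 and Tbx18.

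Ratios within a library do not depend on its scaling. The FPKM ratio of Pax9 to Pax1 was 3.19 and 4.02 in null HO embryos, against 0.428 and 0.451 in null WT. It was 2.51 and 2.91 in CD HO embryos, against 0.411 and 1.56 in CD WT. Pax9 was thus the more abundant of the pair in every HO library, and in 1 of 4 WT libraries, CD WT replicate 2. The HE libraries lay between 0.325 and 0.394.

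Meox1 exceeded Meox2 by 18.9 and 41.7 times in null HO and by 26.5 and 53.2 times in CD HO embryos. The same ratio was 9.26 and 8.99 in null WT and 9.62 and 16.8 in CD WT. Uncx stood to Tbx18 as 0.240 and 0.114 in null HO and 0.151 and 0.262 in CD HO embryos, against 0.547 and 0.488 in null WT and 0.613 and 0.556 in CD WT. Uncx was therefore lower relative to Tbx18 in all HO libraries than in any other, CD WT replicate 2 included. Tbx18 is also made in the proepicardium, so in whole embryos this ratio need not compare the parts of the somite alone. The sum of 16 proepicardium and septum transversum genes was 270 to 339 CPM in null HO and 276 to 278 CPM in null WT. It was 322 to 351 CPM in CD HO and 320 to 370 CPM in CD WT. Its part in the ratio was not tested. Foxc1 over Foxc2 ranged from 0.723 to 1.15 in HO and from 0.632 to 0.944 in WT embryos, with overlap.

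**Figure D3:**
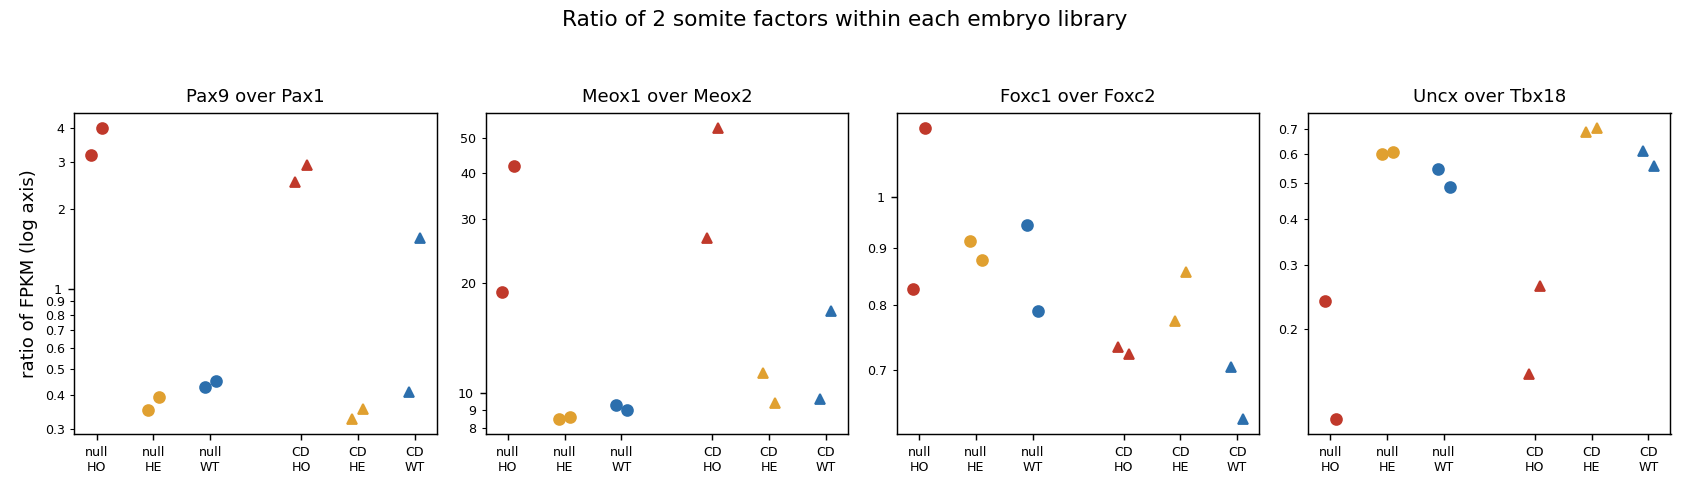
Ratio of FPKM (log axes) of 4 pairs of members in each embryo library, by line and genotype (red HO, orange HE, blue WT; circles null, triangles CD). Pax9 over Pax1 is 2.51 or more in the HO libraries and 1.56 or less elsewhere, Uncx over Tbx18 is 0.262 or less in HO and 0.488 or more elsewhere, and Foxc1 over Foxc2 overlaps between genotypes.

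Over the 12 embryo libraries, 9 members varied together and Pax9 against them. Pearson's r between a member's log2 CPM and the mean of the other 9 was highest for Uncx (0.996) and Meox1 (0.995) and lowest among the positive ones for Foxc2 (0.878), while Pax9 had r = -0.828. The libraries fall into HO and the rest, so these values mostly describe that split and are given without a p. Among 11261 genes with a mean of 5 CPM or more, the non-members closest to the mean of the members were Rrm2 (r = 0.993), H2afy2 (0.992), Crabp2 (0.992), Pou3f2 (0.991) and Slc35a4 (0.990). For Meox1 alone they were Slc35a4 (0.995), Tecr (0.993) and Rrm2 (0.991). A high r here is no sign of a like size of change: Crabp2, a retinoic acid binding protein, had log2 fold changes of -1.91 in null HO and -0.94 in CD HO, and Rrm2, a subunit of ribonucleotide reductase, -0.23 and -0.15.

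Other genes of the somite pathway moved less evenly. The shares of all genes called, given above, are the background for these counts. In RNA from whole embryos, a change of a listed gene cannot be placed in the somites alone. Of 20 sclerotome and cartilage precursor genes tested, 12 fell and 4 rose in null HO embryos, with a median of -0.50, and 10 fell and none rose in CD HO embryos, with a median of -0.41. Twist1, a basic helix-loop-helix factor of mesenchyme, fell by 1.54 (SE 0.11, edgeR adjusted p = 2.22e-06) in null and by 0.84 (SE 0.10, edgeR adjusted p = 0.000337) in CD embryos. Cdh11, a cadherin of mesenchymal cells, fell by 1.51 (SE 0.11, edgeR adjusted p = 3.63e-06) and 0.94 (SE 0.11, edgeR adjusted p = 0.000201). Mfap2, a microfibril protein, fell by 1.61 in null (SE 0.14, edgeR adjusted p = 1.19e-05), and Snai2, a mesenchymal repressor, by 0.78 in CD embryos (SE 0.13, edgeR adjusted p = 0.00183). Nkx3-2, a homeobox gene downstream of Pax1 and Pax9 in the sclerotome and named here after its values were seen, fell by 3.97 (SE 0.58, edgeR adjusted p = 0.000351) and 2.10 (SE 0.55, edgeR adjusted p = 0.0236). With CD WT replicate 2 left out the CD count was 10 lower and 1 higher. It was 6 lower with replicate 1 of CD WT or of CD HO left out, and 5 lower with replicate 2 of CD HO left out. The null count kept 10 to 12 lower, while its 4 higher became 2 without null WT replicate 1 and 1 without null WT replicate 2.

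Dermomyotome and myotome genes split. Of 23 tested, 8 fell and 3 rose in null HO and 2 fell and 1 rose in CD HO embryos, with medians of -0.06 and -0.03. Dmrt2, a target of Pax3 in the dermomyotome, fell by 2.71 (SE 0.30, edgeR adjusted p = 5.6e-05) in null and 2.03 (SE 0.30, edgeR adjusted p = 0.000977) in CD embryos. Sim1, a marker of its lateral lip, had changes of -1.59 (SE 0.28, edgeR adjusted p = 0.00108) and -1.75 (SE 0.29, edgeR adjusted p = 0.00196). Alx4 fell by 1.44 in null embryos (SE 0.28, edgeR adjusted p = 0.00201). The gene that rose in CD embryos was Acta1, a skeletal muscle actin (0.38, SE 0.12, edgeR adjusted p = 0.0455). Actc1, Mef2c and Ttn of this list are also on the cardiac list, and the summed level of 16 cardiac genes was 1751 to 2719 CPM in null HO and 1656 to 1844 CPM in null WT embryos; its part in these counts was not tested. The null count became 4 lower and 4 higher without null HO replicate 2, 4 lower and 1 higher without null WT replicate 1, and 5 lower and 1 higher without null WT replicate 2.

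Presomitic genes, which stand upstream of somite formation, were split in the null line and leaned lower in the CD line. Of 25 presomitic and segmentation genes tested, 8 rose and 8 fell in null HO, and 5 fell and none rose in CD HO embryos. Dll1, a Notch ligand found in the presomitic mesoderm, fell in both lines, by 0.98 (SE 0.08, edgeR adjusted p = 8.59e-06) and 0.80 (SE 0.08, edgeR adjusted p = 7.98e-05). The RNA came from whole embryos, so the tissue in which Dll1 fell is not known. Dkk1, a Wnt antagonist, rose in null HO embryos by 1.498 (SE 0.16, edgeR adjusted p = 5.6e-05), as did Efnb2, an ephrin of the somite border (0.38, SE 0.06, edgeR adjusted p = 0.00081). In CD HO embryos Mesp2, which sets the next somite border, had a change of -2.31 (SE 0.48, edgeR adjusted p = 0.00739) and Cer1, a secreted antagonist found in new somites, of -3.45 (SE 0.43, edgeR adjusted p = 0.000324). Leaving out single libraries moved the null count to between 3 and 7 higher and between 3 and 10 lower, and in the CD line 4 rose and 5 fell without CD WT replicate 2.

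Of 15 tail bud genes, 10 rose and 1 fell in null HO embryos, and 6 rose when either null WT library was left out. Sp5, a Wnt target, rose by 1.69 (SE 0.21, edgeR adjusted p = 0.000123) and Bmp7 by 0.59 (SE 0.09, edgeR adjusted p = 0.000464), while Gdf11, a ligand that ends trunk formation, fell by 0.59 (SE 0.09, edgeR adjusted p = 0.00047). In CD HO embryos 2 rose and 1 fell, and without CD WT replicate 2, the WT library with the highest tail bud sum, 6 rose and 1 fell. With CD WT replicate 1 left out 1 rose and 3 fell, and with CD HO replicate 2 left out none was called. Summed over the list the level was 379 to 484 CPM in CD HO and 327 to 526 CPM in CD WT embryos. Against CD HE the count was 10 higher and 1 lower. Posterior Hox genes showed 1 higher and 3 lower of 16 in null HO and 2 lower of 16 in CD HO embryos, shares near or below those over all genes in the null line. None was called in the null line when either WT library was left out, 2 were higher and 5 lower without null HO replicate 2, and in the CD line 6 were lower without CD WT replicate 2.

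Signals that act on the somite were more often higher than lower in the null line. Of 25 genes tested, 12 rose and 4 fell in null HO and 3 rose and 2 fell in CD HO embryos. The null median was 0.38. It was 0.01 with null HO replicate 1 left out and 0.54 with null HO replicate 2 left out. Wnt3a, Fgf4 and Fgf8 of this list are also on the tail bud list, and Wnt3a and Fgf8 on the presomitic list too. Ptch1, the hedgehog receptor and itself a hedgehog target, rose in null HO embryos by 1.14 (SE 0.14, edgeR adjusted p = 0.000124) and Pdgfa, a ligand from the myotome, by 0.87 (SE 0.10, edgeR adjusted p = 6.43e-05). Gas1, a hedgehog co-receptor, fell by 1.09 (SE 0.13, edgeR adjusted p = 8.69e-05). In CD HO embryos Shh, the notochord and floor plate signal that induces Pax1, fell by 0.60 (SE 0.12, edgeR adjusted p = 0.00641), Hhip, a hedgehog-binding protein, fell by 0.94 (SE 0.16, edgeR adjusted p = 0.00221), and Wnt1 rose by 1.30 (SE 0.20, edgeR adjusted p = 0.00144). Shh in null HO embryos changed by -0.07 (SE 0.12, edgeR adjusted p = 0.707). With CD WT replicate 2 left out the CD count was 5 higher and 3 lower, and it was 1 higher and 2 lower with either CD WT replicate 1 or replicate 2 of CD HO left out.

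**Figure D4:**
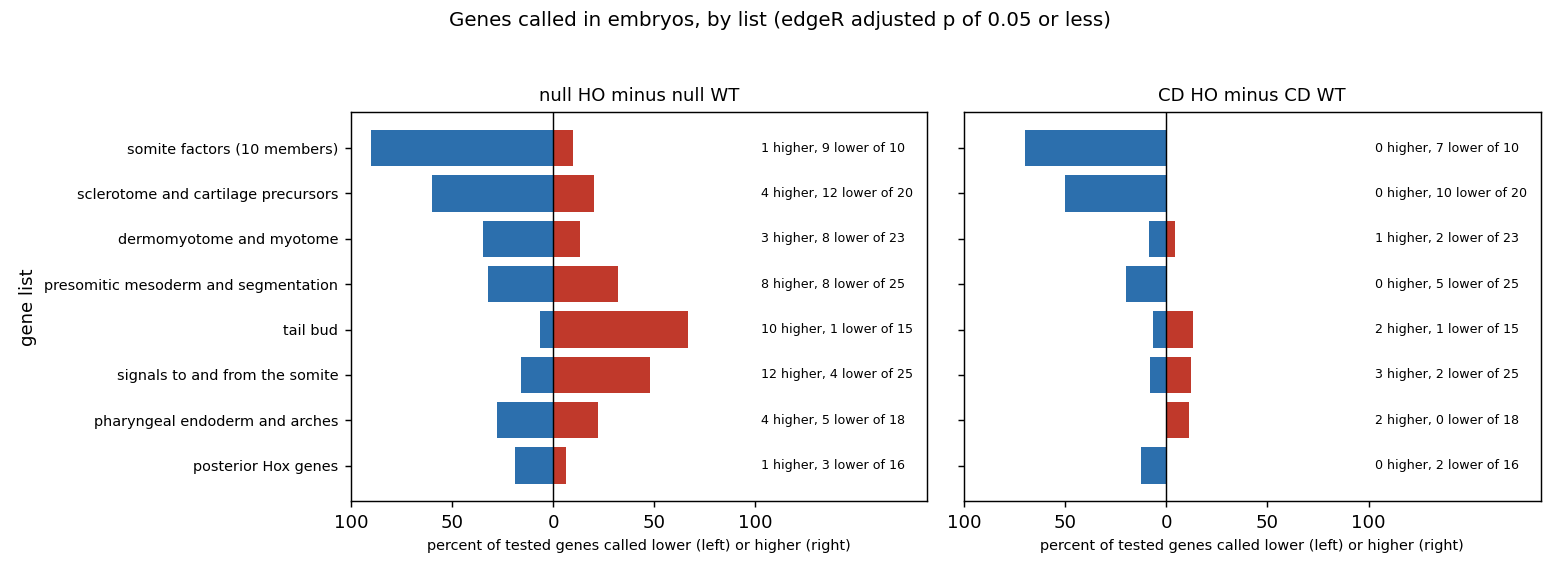
Share of the tested genes of each list called lower (left, blue) or higher (right, red) in null HO (left panel) and CD HO embryos (right panel) against WT, in percent, with the counts written beside the bars. Of the members 9 of 10 and 7 of 10 were lower, against 12 of 20 and 10 of 20 sclerotome genes, while 10 of 15 tail bud genes were higher in null HO.

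The yolk sac has no somites, and the members were nearly silent there. Uncx and Myf5 had 0 counts in all 12 yolk sac libraries, which allows at most 0.0124 CPM over the 242533172 counts of the tissue (3 counts, counting error only). Pax1 had 2 counts in 1 library and none in the other 11, and Tbx18 had none in 7 libraries, all 4 labelled WT among them, and 1 to 4 counts in each of the 4 HO libraries. The highest count of any member in a yolk sac was 28, of Pax9 in CD HO replicate 2. No yolk sac value of any member exceeded 0.367 FPKM.

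Foxc1 and Pax9 alone could be tested in yolk sacs. The null yolk sac libraries labelled WT held 108 ± 8.12 CPM of Setd2, near the 117 CPM of null HE, so their label is in doubt. Foxc1 had 22 and 16 counts in null HO yolk sacs, against 3 and 9 in the null libraries labelled WT (1.62, SE 0.71, edgeR adjusted p = 0.203). Pax9 had 23 and 28 counts in CD HO yolk sacs, against 1 and 18 in CD WT (1.54, SE 0.95, edgeR adjusted p = 0.398). edgeR called 0 of the 2 in the null line, where 6.27% of genes were called, 2.3% higher and 3.97% lower, with 1 (Foxc1) at an unadjusted p under 0.05 and 0 by DESeq2. It also called 0 in the CD line, where 3.15% were called, 1.27% higher and 1.89% lower, with 0 at an unadjusted p under 0.05 and 0 by DESeq2. HO and WT yolk sacs of the CD line differed in sex, with Ddx3y at 106 and 112 CPM in HO against 0 and 0.146 CPM in WT. Sex and genotype therefore cannot be told apart in that comparison.

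**Figure D5:**
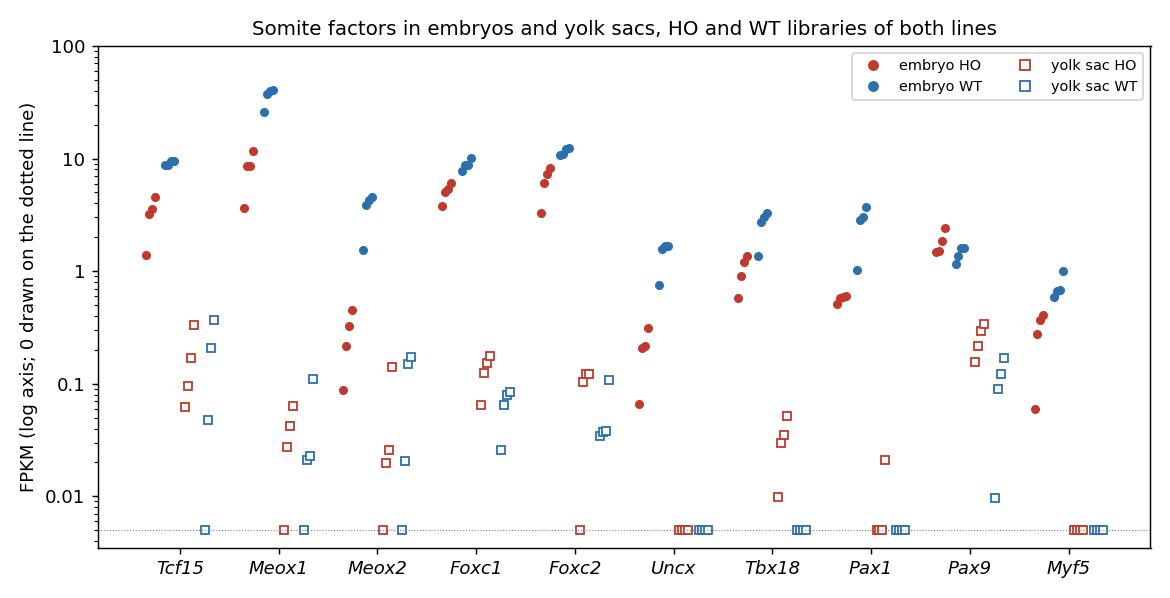
FPKM (log axis) of each member in HO (red) and WT (blue) libraries of both lines, in embryos (filled circles) and yolk sacs (open squares); a value of 0 is drawn on the dotted line. Embryo values run from 0.0598 FPKM, for Myf5, to 40.5 FPKM, for Meox1, and no yolk sac value exceeds 0.367 FPKM.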

How the data were processed

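The authors deposited 1 table per tissue, with a raw read count per gene and library and a gene length. Per the submitters' processing notes, the tools were fastp 0.22.0, HISAT2 2.2.1, featureCounts 2.0.1 and DESeq2 1.32.0, with build mm10. Neither the annotation release nor the strand setting is named there. A further 12 normalised value columns per table were not used. FPKM was computed from the deposited counts, the deposited lengths and the column totals, and CPM from TMM-scaled totals.

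In R 4.3.3, edgeR 4.0.16 (quasi-likelihood test, 6 group coefficients per tissue over 12 libraries, filterByExpr with a minimum count of 10 and a minimum total of 15) was fitted to all genes, 19215 in embryos and 17755 in yolk sacs, with 6 residual degrees of freedom. The script was tested on simulated data. DESeq2 1.42.0, other scalings, no filter, a sex term, a replicate block, fits of the compared groups alone and leaving out libraries were the alternatives. The members and the gene lists were chosen with earlier results of these data known. Named genes are the 10 members, Setd2, up to 3 called genes of smallest p per list and line, and the genes most like the members; Nkx3-2, Shh in null embryos and a few genes named beside a count fall outside that rule. Intervals of fold changes come from the edgeR fit and include the spread between libraries, while limits for a count of 0 cover counting error only. No label says that same-numbered replicates shared more than a number.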

Additional observations from a re-analysis of the deposited data

Results flagged for a closer look

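The change of Foxc1 had opposite signs in the tissues of the null line, and the yolk sac one did not pass. In yolk sacs it had 22 and 16 counts in null HO, against 3 and 9 counts in the libraries labelled WT, a log2 fold change of 1.62 (SE 0.71, edgeR adjusted p = 0.203). In embryos the change was -1.05 (SE 0.12, edgeR adjusted p = 8.28e-05), and the groups did not overlap in either tissue. The difference between the tissues was not tested. The yolk sac values rest on few counts, and the level of Setd2 in the yolk sac libraries labelled WT went against their label. In CD yolk sacs Foxc1 had 8 and 12 counts in HO, against 10 and 8 counts in WT (0.27, edgeR adjusted p = 0.874), and CD HE replicate 1 had 24 counts, above both null HO libraries.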

How the results depend on the processing

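Over 90 log2 fold changes of members and 1090 alternatives of them, 992 kept their direction and their side of the threshold, 40 no longer passed, 29 newly passed, none of the called values changed sign, and 29 uncalled values changed sign. Of the 10 members, the number called in CD HO against CD WT was 7, with 3 under a sex term and 4 to 7 with 1 library left out. Against CD HE it was 9, with 6 under a sex term and 5 to 6 with 1 library left out. In null HO against null WT it was 10, and 8 to 10 with 1 library left out. For the difference between the alleles it was 0, with 1 in DESeq2, 3 without the filter on low counts and 0 to 6 with 1 library left out. In CD HE against CD WT it was 0, with 2 without the filter and 0 to 3 with 1 library left out. In CD WT against null WT it was 0, with 4 without the filter and 0 to 3 with 1 library left out. For the difference between the alleles, calls over all genes rose from 4 to 183 in DESeq2 and to 949 without the filter. Without the filter they rose from 3 to 695 in CD HE against CD WT. In CD WT against null WT they rose from 6 to 1293 without it. A library left alone in its group was assumed to vary like the other groups, and the cause of these changes was not tested. With the replicate block the counts were 10 in null HO against null WT, 7 in CD HO against CD WT, 9 against CD HE and 0 for the difference between the alleles, so the block moved none of them. Same-numbered libraries had correlations of -0.114 to 0.0778 over 15 pairs of groups, which gives no hint of pairing. With 2 libraries per group a lone library sets some calls, and Myf5, Uncx and Meox2 rest on 3 to 28 counts in HO libraries.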
